A study of Mus musculus with 16 samples.

Results

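Short-term hematopoietic stem cells (ST-HSC) and multipotent progenitors (MPP), neighbouring steps of early blood formation, were compared by the microRNAs (miRs) they carried. The comparison rested on 6 of the 16 arrays of the series, 3 titled ST-HSC and 3 titled MPP; the other arrays held long-term HSC (LT-HSC) and myeloid progenitors, namely the common (CMP), the granulocyte-monocyte (GMP) and the megakaryocyte-erythroid ones (MEP). Both populations were sorted from the bone marrow of untreated young adult female C57Bl/6 mice, with several mice pooled for each sample. The study's methods name antibodies against lineage antigens, c-kit, Sca-1, CD34 and FLT3. By the usual definitions, given here as background, both populations are lineage-negative, c-kit+, Sca-1+ and CD34+, and MPP carry FLT3 while ST-HSC lack it. The genes of these surface markers are not on a miR array, so the labels could not be checked against them here. RNA went onto one-colour Agilent mouse miR arrays, and a miR is called detected on an array where its probe was well above the local background. Whether the arrays of a population came from separate sorts is not given in the labels, so the spread between them may be partly technical.

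A miR is a short RNA that guides Argonaute proteins to messenger RNAs, mostly by pairing of its seed, the bases 2 to 8 from its 5′ end. The targeted messages are then translated less or degraded. ST-HSC can rebuild all blood lineages for a limited time, and MPP have largely given up self-renewal while keeping access to the lymphoid and the myeloid branches. Some miRs are known as marks of such states: miR-126, miR-130a, miR-196b and the miR-99, miR-100 and miR-125 clusters of stem and early progenitor cells, miR-150, miR-181 and miR-342 of lymphoid cells, and miR-223 of granulocytes and monocytes.

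ST-HSC 2, ST-HSC 3 and all MPP arrays lay on the same glass slide (slide 3), while ST-HSC 1 lay on slide 2 with the LT-HSC array and 1 array each of CMP, GMP and MEP. The array labelled ST-HSC 1 stood apart. Over 237 tested miRs its log2 signals correlated with those of ST-HSC 2 and 3 at r = 0.902 and 0.911, against 0.992 between ST-HSC 2 and 3, and its highest correlation was with CMP 3, at 0.967, an array of its own slide. It also stood at 0.943 and 0.942 with CMP 1 and 2, which were on slide 1. Of the 237 miRs, 46 were over 1 log2 unit above the mean of ST-HSC 2 and 3 on this array and 44 were over 1 log2 unit below it. Its summed signal, 73652 units, was the lowest of the 6 arrays, against 126280 to 164290 on slide 3. The values of several miRs showed its distance: miR-16 read 11.21 on ST-HSC 1 and 8.95 and 9.06 on ST-HSC 2 and 3, and miR-697 read 3.57 there and 6.89 and 7.14 on the others. MiR-99a did not follow this pattern, at 8.90 on ST-HSC 1 and 8.65 and 8.80 on ST-HSC 2 and 3. Whether slide, RNA input or the sorted cells gave the distance was not tested, and each called miR is therefore given over all 3 ST-HSC arrays and within slide 3, where 2 arrays faced 3.

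**Figure D1:**
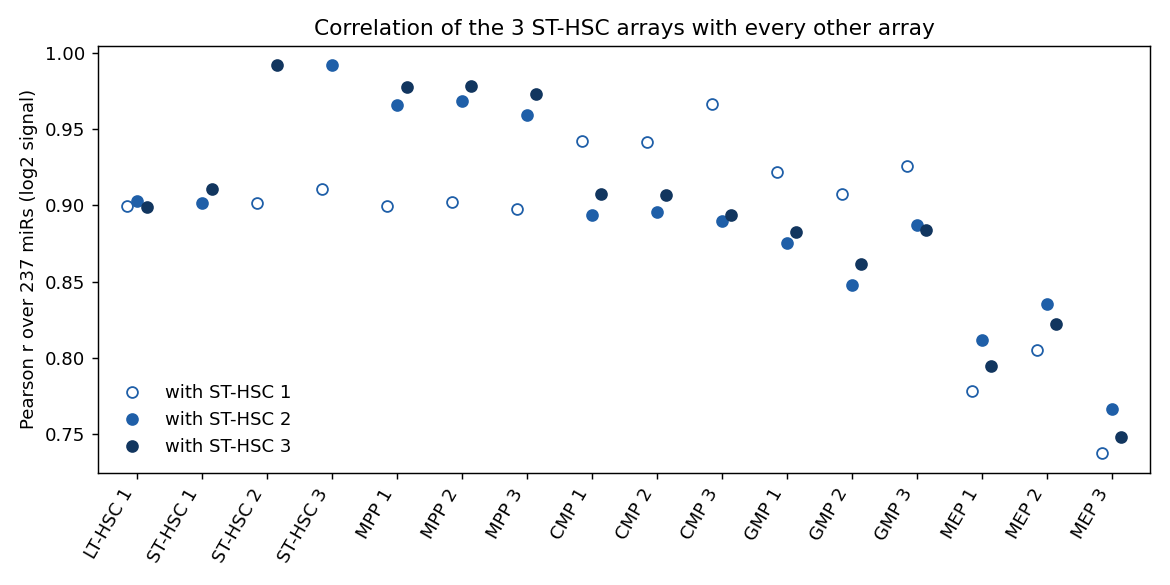
Pearson correlation over 237 miRs (y axis, log2 signals) of ST-HSC 1 (open), ST-HSC 2 (blue) and ST-HSC 3 (dark blue) with each other array (x axis). ST-HSC 2 and 3 correlated with the MPP arrays at 0.960 to 0.978, and ST-HSC 1 was closest to CMP 3, at 0.967.

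In a limma fit over all 16 arrays, 11 of the 237 tested miRs (4.64%) differed between ST-HSC and MPP at an adjusted p under 0.05. ST-HSC were higher for 3 of them (1.27% of the tested miRs), miR-193b, miR-762 and miR-130a, and MPP for 8 (3.38%), miR-128, miR-342-3p, miR-126-3p, miR-200b, miR-151-5p, miR-181a-1*, miR-224 and miR-362-5p. With the slide as a block the fit takes the difference from slide 3 alone, because ST-HSC is the population that joins slides 2 and 3, and ST-HSC 1 has no weight in it. This fit called 42 miRs (17.7%), 14 higher in ST-HSC (5.91%) and 28 higher in MPP (11.8%), with all 11 among them in the same direction. Fitted to the 5 arrays of slide 3 alone, the model called 59 miRs (24.9%), 19 higher in ST-HSC (8.02%) and 40 higher in MPP (16.9%), among them 10 of the 11, with miR-200b at an adjusted p of 0.0533. MiR-200b had passed the filter on low signals through the 3 MPP arrays alone, so that a difference was built in, and its call supports nothing beyond that. Leaving ST-HSC 1 out of the unblocked fit gave 9 calls, 6 of them among the 11. At an unadjusted p under 0.05 the 16-array fit gave 40 miRs (16.9%). Signals of all ST-HSC arrays lay to 1 side of all MPP arrays for 84 miRs (35.4%), and on slide 3 for 143 (60.3%). The difference was over 0 for 44.7% of the tested miRs in the 16-array fit and for 38.4% on slide 3. Single arrays decided much of the unblocked count, which was 2 without MPP 2, MPP 3 or ST-HSC 2, 3 without MPP 1 or GMP 1, and 22 without GMP 3. MiR-128 and miR-193b were called in all 16 fits that left out 1 array.

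The split by direction depended on how the arrays were scaled to each other. The median difference over all tested miRs was -0.09 in the 16-array fit and -0.12 on slide 3 with quantile normalization, so that each value given here stands on a slightly negative background. With each array scaled to the 75th percentile of its bright probes (those detected on all 16 arrays), that median was 0.15 and 0.17, and the blocked fit called 36 miRs higher in ST-HSC and 15 higher in MPP. With the 75th percentile of all probes it called 10 and 60, without normalization 3 and 8, and with the authors' deposited values 16 and 24. On slide 3, 41 of the 42 miRs kept their direction under each of these scalings, the exception being miR-345-5p under the first. The 42 were picked by their differences on these same arrays, so a kept direction says little. Fewer were called again in the blocked fit. These were 26 with the percentile of bright probes, 36 with that of all probes, 10 without normalization and 28 with the deposited values.

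The sequences below are those of 9 of the called miRs, of miRs that share a seed or locus with them (miR-181a, miR-181b and miR-721), and of miR-196a, miR-196b and miR-341, which were called with the block. They are mature miRs of RefSeq on GRCm38.p6, printed 5′ to 3′ with the seed in capitals. Of the 235 tested mouse miRs 163 were matched there, 49 by name and 114 after the older array name was assigned to its arm. MiR-126-3p, miR-126-5p, miR-150 and miR-151-5p are named only. The first set was higher in MPP.
miR-128-3p: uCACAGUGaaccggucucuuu
miR-342-3p: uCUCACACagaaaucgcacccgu
miR-181a-5p: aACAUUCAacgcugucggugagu
miR-181b-5p: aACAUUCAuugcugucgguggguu
miR-181a-1-3p: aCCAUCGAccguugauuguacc
miR-196a-5p: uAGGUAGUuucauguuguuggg
miR-196b-5p: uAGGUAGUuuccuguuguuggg
miR-224-5p: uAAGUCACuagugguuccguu
miR-362-5p: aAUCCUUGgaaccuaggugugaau
miR-200b-3p: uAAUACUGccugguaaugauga

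The second set was higher in ST-HSC, and its first pair shares a seed.
miR-130a-3p: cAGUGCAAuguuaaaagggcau
miR-721: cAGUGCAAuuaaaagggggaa
miR-193b-3p: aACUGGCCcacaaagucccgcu
miR-762: gGGGCUGGggccgggacagagc
miR-341-3p: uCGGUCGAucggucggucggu

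MiR-128-3p comes from 2 loci, 1 of them at chr1:128202404-128202424 on the plus strand, in an intron of R3hdm1, and miR-342-3p from chr12:108658680-108658702 on the plus strand, in an intron of Evl. The miR-181a-1 hairpin gives miR-181a-5p at chr1:137966468-137966490 and its other strand, miR-181a-1-3p (miR-181a-1* on the array), at chr1:137966508-137966529, with 1 of the 2 loci of miR-181b next to it. MiR-130a-3p lies at chr2:84741116-84741137 on the minus strand and miR-193b-3p at chr16:13449570-13449591 on the plus strand.

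The miRs known from lymphoid cells lay on the MPP side. Of 10 lymphoid miRs listed, 9 were tested, and MPP were higher for 3 of them in the 16-array fit and for 6 with the slide as a block, against 3.38% and 11.8% of all tested miRs. The list's median difference was -0.67 (-0.78 on slide 3) beside -0.09 (-0.12) over all tested miRs. This list was put together with the values of MPP known, so its direction is no independent evidence. All 9 differences were below 0 with quantile normalization, and 8 of 9 on slide 3 under the first of the other scalings.

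MiR-128, known from neurons and from lymphoid leukemia, had the largest difference of all tested miRs in either fit. Its log2 signal (log2 of the quantile-normalized intensity) was 5.0, 5.85 and 5.95 on ST-HSC 1, 2 and 3 and 8.76, 8.47 and 7.96 on MPP 1, 2 and 3. All MPP arrays lay above all ST-HSC arrays, and ST-HSC 1 was the lowest of the 6. The difference ST-HSC minus MPP was -2.80 ± 0.37 (SE, n = 3 and 3, limma adjusted p = 5e-04), and on slide 3 -2.50 ± 0.24 (block, adjusted p = 5.56e-05), or 5.67-fold. The other populations did not reach the MPP level either, with CMP the next at 6.05 to 7.02 and the LT-HSC array at 4.70.

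MiR-342-3p, a miR of lymphocytes, read 5.01, 4.60 and 5.45 in ST-HSC and 7.33, 6.82 and 6.57 in MPP. The groups did not overlap, and ST-HSC 1 lay between the other ST-HSC arrays. The difference was -1.89 ± 0.44 (limma adjusted p = 0.0291) and -1.88 ± 0.28 with the block (adjusted p = 0.000968), a 3.69-fold higher MPP level. In MEP its signal was not above background on any of the arrays.

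MiR-150, which restrains Myb in lymphocytes, read 5.27, 5.64 and 5.88 in ST-HSC and 7.24, 7.08 and 7.29 in MPP. Again no ST-HSC array came near the lowest MPP array. The 16-array fit gave -1.61 ± 0.44 and did not call it (limma adjusted p = 0.0585), while the blocked fit did, at -1.45 ± 0.20 (adjusted p = 0.000629). The other arm of the same hairpin, miR-150*, had a difference of the other sign on slide 3, 1.04, which was not called (block adjusted p = 0.241).

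MiR-181 family members were lower in ST-HSC by smaller amounts. The passenger strand miR-181a-1* read 4.07, 3.68 and 4.02 against 4.76, 4.87 and 4.96, a difference of -0.94 ± 0.20 (limma adjusted p = 0.0276) and of -1.01 ± 0.19 with the block (adjusted p = 0.00423). MiR-181a and miR-181b, which share the seed ACAUUCA printed above with miR-181c and miR-181d, differed by -0.64 and -0.78 on slide 3 (block adjusted p = 0.0353 and 0.0121). MiR-181c and miR-181d lay at -0.51 and -0.58 there and were not called (block adjusted p = 0.0554 and 0.0535). Over all 3 ST-HSC arrays none of these 4 guide strands was called, with values between -0.67 and -0.09. MiR-155, the remaining member of the list, differed by -0.15 on slide 3 (block adjusted p = 0.603).

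**Figure D2:**
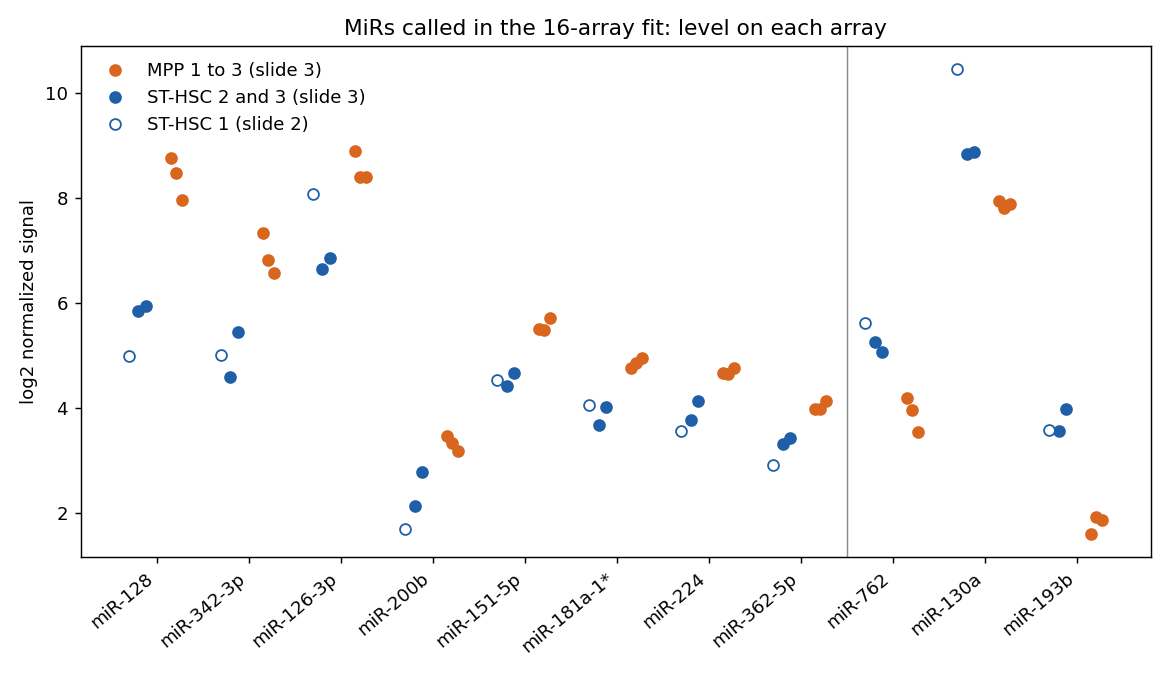
Log2 normalized signal (y axis) of the 11 called miRs (x axis) on ST-HSC 1 (open blue, slide 2), ST-HSC 2 and 3 (blue) and MPP 1 to 3 (orange), each point 1 array; miRs left of the line were higher in MPP. The groups do not overlap for any of the 11, nor for 35.4% of all tested miRs. ST-HSC 1 is far from ST-HSC 2 and 3 for miR-126-3p (8.08) and miR-130a (10.45).

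The miRs known from stem cells were called in both directions, though most lay below 0. Members below 0 numbered 9, against 2 above, both over all arrays and on slide 3. The list's median was -0.66 (-0.29 on slide 3) beside -0.09 (-0.12) over all tested miRs. Under the first of the other scalings 5 members were above 0 on slide 3. Of 11 tested members of that list (beside the miR-99, miR-100 and miR-125 clusters), ST-HSC were higher for miR-130a and miR-193b and MPP for miR-126-3p in the 16-array fit (1.27% and 3.38% of all tested miRs), and with the block MPP were higher for miR-126-5p, miR-196a and miR-196b as well (5.91% and 11.8% of all).

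Both arms of miR-126, whose hairpin lies in an intron of Egfl7 and which limits signalling downstream of growth factor receptors in HSC, were higher in MPP. MiR-126-3p read 8.08, 6.65 and 6.86 in ST-HSC and 8.90, 8.40 and 8.40 in MPP, and miR-126-5p read 5.11, 3.75 and 3.95 against 5.65, 5.56 and 5.75. ST-HSC 1 was over 1 log2 unit above its group for both arms, close to the MPP arrays, and the LT-HSC array on the same slide read 8.01 for the 3p arm and 3.52 for the 5p arm, the latter not well above background. Over all arrays the differences were -1.37 ± 0.35 (limma adjusted p = 0.0399) and -1.38 ± 0.46 (adjusted p = 0.111). Within slide 3 the arms differed by nearly the same amount, -1.81 ± 0.20 (block adjusted p = 0.00019) for 3p and -1.80 ± 0.22 (block adjusted p = 0.000313) for 5p.

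MiR-196a and miR-196b, encoded in the Hox gene clusters and directed against Hox messages, share the seed AGGUAGU. MiR-196b read 8.0 to 8.28 over the ST-HSC arrays and 9.14 to 9.28 over the MPP arrays, without overlap. Its difference was -1.06 ± 0.34 (limma adjusted p = 0.0996) and -0.98 with the block (adjusted p = 0.00842). MiR-196a differed by -0.69 and, on slide 3, by -1.16 (block adjusted p = 0.0354). MiR-10a and miR-10b, the other Hox cluster miRs, were not called, at -0.22 and -0.16 on slide 3 (block adjusted p = 0.486 and 0.703).

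MiR-130a, a miR of stem cells and megakaryocyte precursors, was higher in ST-HSC. It read 10.45, 8.83 and 8.88 in ST-HSC and 7.95, 7.81 and 7.88 in MPP. No ST-HSC array fell to the MPP level, and the array on slide 2 was higher than the other ST-HSC arrays by 1.60. The difference was 1.51 ± 0.38 (limma adjusted p = 0.0364), and within slide 3 it was 0.98 ± 0.25 (block adjusted p = 0.0232), or 1.97-fold. Its family members did not follow: miR-130b and miR-301a, with the same seed AGUGCAA, differed by 0.08 and -0.10 on slide 3 (block adjusted p = 0.673 and 0.689), and miR-301b, of the same family but not matched to a sequence here, by 0.12 (block adjusted p = 0.67). MiR-721, whose printed sequence has this seed too, read 6.84, 7.35 and 6.70 against 5.83, 6.15 and 5.37, a difference of 1.24 ± 0.39 (block adjusted p = 0.0479; 1.18 and adjusted p = 0.183 in the 16-array fit).

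MiR-193b, known as a brake on HSC expansion, read 3.59, 3.57 and 3.98 in ST-HSC and 1.62, 1.94 and 1.88 in MPP. These are dim signals: the single usable probe was well above background on 2 of 3 ST-HSC arrays and on no MPP array, so only a bound can be given, at least 1.69-fold higher in ST-HSC. The fitted difference, 1.90 ± 0.25 (limma adjusted p = 5e-04; 1.96 with the block), rests on MPP values at or near the floor of 1.62, and fell to 0.17 in the lowest of the alternative settings. CMP and MEP arrays read 3.17 to 4.25 and GMP arrays 1.65 to 1.91. Outside ST-HSC, MEP 2 alone had it well above background, so the other of these readings are undetected values. The miR passed the filter through ST-HSC 2, ST-HSC 3 and MEP 2, so that its passing depended in part on the higher group.

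**Figure D3:**
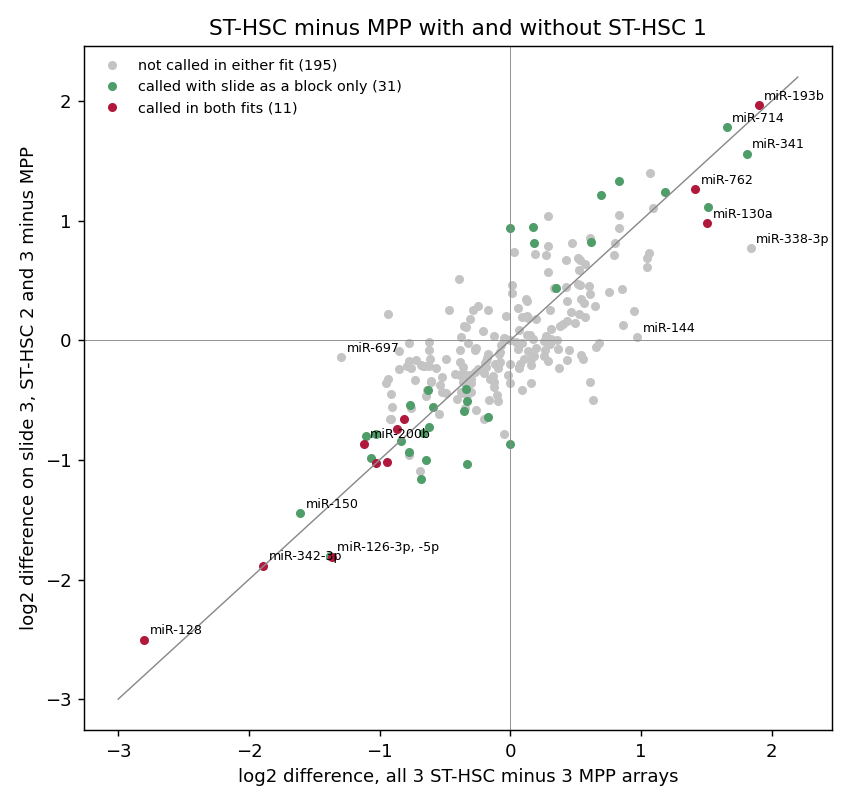
Log2 difference ST-HSC minus MPP of 237 miRs over all 3 ST-HSC arrays (x axis) and within slide 3 (y axis), each point 1 miR; red points were called in both fits (11), green points only with the slide as a block (31), grey points in neither, and the line marks equal values. The 2 axes share the MPP arrays and ST-HSC 2 and 3, and miRs far from the line, such as miR-338-3p and miR-144, are those for which ST-HSC 1 differed from ST-HSC 2 and 3.

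Other miRs higher in MPP included neighbours on chromosome X. Of 6 tested miRs in an intron of Clcn5 (chrX:6814821-6825598, mm9 coordinates of the array), MPP were higher for 4 with the slide as a block (11.8% of all tested miRs): miR-362-5p at -0.66, miR-362-3p at -0.94, miR-532-3p at -0.78 and miR-500 at -0.51 on slide 3 (block adjusted p = 0.00926, 0.0216, 0.0121 and 0.0438). MiR-532-5p lay at -0.61 and miR-188-5p at 0.81 without a call (block adjusted p = 0.0867 and 0.154). MiR-362-5p, called in the 16-array fit as well, read 2.92, 3.32 and 3.44 in ST-HSC, where 1 of 3 arrays was well above background, and 3.99, 3.99 and 4.14 in MPP, a difference of -0.81 ± 0.19 (limma adjusted p = 0.0319). MiR-224, elsewhere on the same chromosome in an intron of Gabre, read 3.57, 3.78 and 4.14 against 4.68, 4.65 and 4.76, a difference of -0.87 ± 0.20 (limma adjusted p = 0.0291; -0.74 with the block). MiR-224 was well above background on ST-HSC 2, ST-HSC 3 and all MPP arrays. It was not so on ST-HSC 1 or on any LT-HSC, CMP, GMP or MEP array.

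MiR-151-5p, hosted by the gene of focal adhesion kinase, read 4.54, 4.42 and 4.68 in ST-HSC and 5.51, 5.49 and 5.72 in MPP. Here ST-HSC 1 lay between ST-HSC 2 and 3, and the differences with and without it were both -1.03 (limma adjusted p = 0.0291, block adjusted p = 0.00303). MiR-200b, better known from epithelia, was well above background on all 3 MPP arrays (3.47, 3.34 and 3.18) and on no ST-HSC array (1.70, 2.14 and 2.80), and no fold is given for it. Its difference of -1.12 ± 0.28 was called in the 16-array fit (limma adjusted p = 0.0364) and with the block (-0.86, adjusted p = 0.0261). The other epithelial miR that passed the filter, miR-203, read 5.41 to 6.01 in ST-HSC and 6.46 to 6.66 in MPP, at -0.57 on slide 3 (block adjusted p = 0.0911), while 6 of the 8 epithelial miRs listed were not tested. MiR-29c differed by -1.04 on slide 3 (block) and was called there, and miR-29a and miR-29b, with the same seed, lay at -0.45 and -0.50 without a call in that fit. Over all ST-HSC arrays miR-29b stood at 0.63 instead, with ST-HSC 1 at 11.31 and ST-HSC 2 and 3 at 7.88 and 7.96.

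Genomic neighbours were not always alike. By the coordinates of the array, 135 tested miRs fell into 46 groups within 10 kb, and 4 groups held more than 1 miR called with the block: the Clcn5 group, miR-181a-1 with miR-181b, the arms of miR-126, and the miR-17 cluster on chromosome 14. In that cluster miR-18a was higher in ST-HSC (0.44, block adjusted p = 0.0353) and miR-92a was higher in MPP (-0.54, block adjusted p = 0.0346). MiR-92a sat at the same rank, 12.70, on all MPP arrays and read 11.49, 11.92 and 12.39 in ST-HSC. The other members tested on the cluster lay between these values.

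Further miRs higher in ST-HSC came from a mixed list of miRs called atypical here. Some of its entries rest on repeats, fragments of other RNAs or probes rich in G. Others are hairpin miRs, such as miR-370 and miR-494 of the imprinted Dlk1-Dio3 region. Of 33 listed, 31 were tested, and ST-HSC were higher for 1 in the 16-array fit (1.27% of all tested miRs) and for 9 with the block (5.91%), with MPP higher for none in either. The unadjusted limma p of the 16-array fit was under 0.05 for 7 of the 31, with ST-HSC higher for each, beside 16.9% of all tested miRs. Their median difference was 0.53 (0.71 on slide 3) beside -0.09 (-0.12) for all tested miRs. On slide 3, 27 of 31 were above 0, and 26 to 30 under the other scalings. Members of this list were known to be high in MEP of these data when it was made.

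MiR-762 was the member called in the 16-array fit. It read 5.62, 5.26 and 5.07 in ST-HSC and 4.19, 3.96 and 3.55 in MPP. The arrays did not overlap, and the difference was 1.41 ± 0.30 (limma adjusted p = 0.0276) and 1.26 ± 0.28 with the block (adjusted p = 0.0116), or 2.40-fold. MEP arrays were higher than both, at 7.66 to 8.19, and the LT-HSC array read 7.08. MiR-714 read 8.65, 9.37 and 8.68 against 7.42, 7.55 and 6.76, or 1.78 ± 0.27 with the block (adjusted p = 0.000968) and 1.66 ± 0.56 over all arrays (limma adjusted p = 0.111). MiR-341, of the imprinted Dlk1-Dio3 region, read 5.31, 4.97 and 4.16 against 3.08, 3.24 and 2.69, and differed by 1.56 ± 0.33 with the block (adjusted p = 0.00926) and by 1.81 ± 0.53 over all arrays (limma adjusted p = 0.0758). Of the 3 MPP arrays MPP 2 alone had it well above background, so that the size of its difference is uncertain. For miR-680, miR-712 and miR-696 the call with the block came with an overlap of the groups, since ST-HSC 1 lay far below ST-HSC 2 and 3. MiR-712 read 6.13, 8.51 and 8.43 against 7.55, 7.58 and 7.42. MiR-706, miR-721 and miR-705 were higher on every ST-HSC array than on any MPP array.

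**Figure D4:**
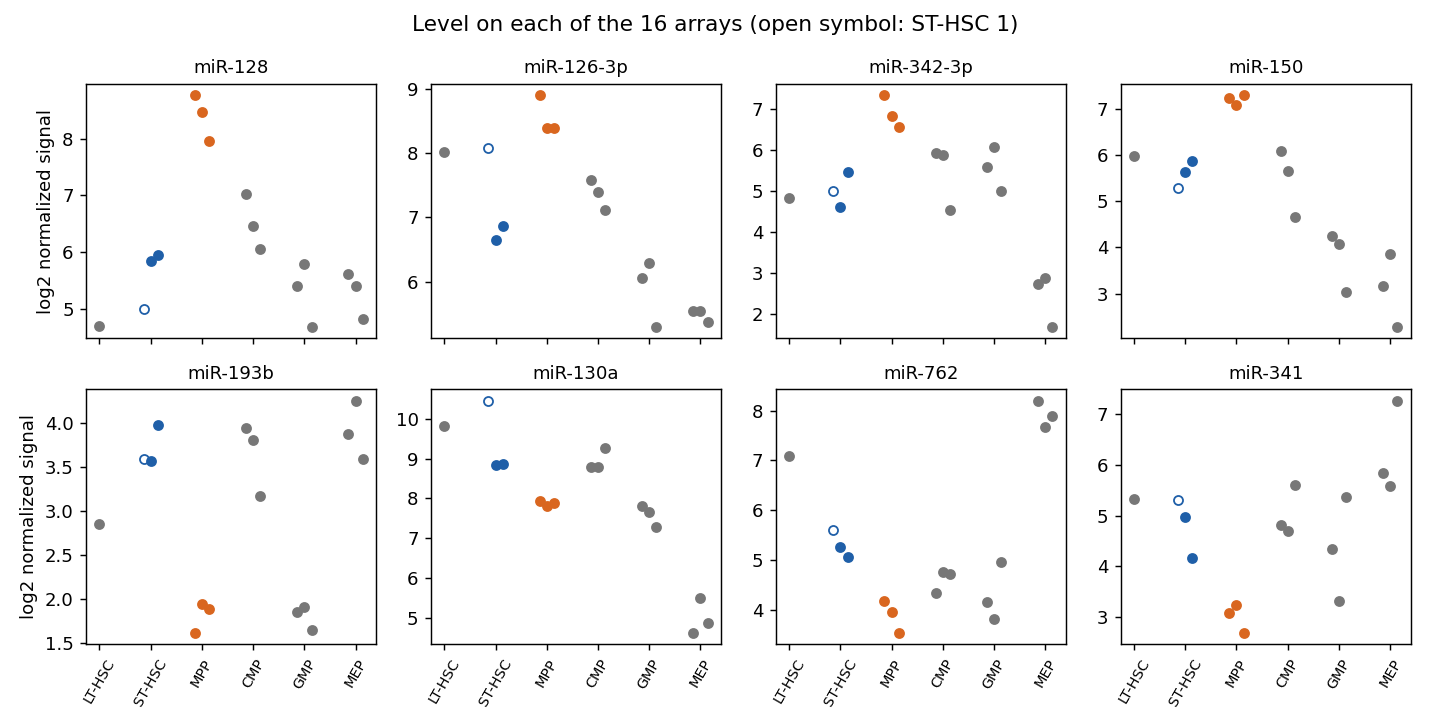
Log2 normalized signal (y axis) of 8 miRs on each of the 16 arrays by population (x axis), with ST-HSC in blue (ST-HSC 1 open), MPP in orange and the others in grey; each panel has its own scale. The MPP arrays are the highest for miR-128 (7.96 to 8.76), and the MEP arrays for miR-762 (7.66 to 8.19).

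The letters of these miRs differed between the directions. Of the miRs called with the block, 10 of 14 higher in ST-HSC and 21 of 28 higher in MPP were matched to a sequence. The 10 had a median GC content of 62.9% (36.4 to 81.8%) and the 21 one of 45.8% (31.8 to 63.6%), beside 47.6% for the 132 not called. Among the 10, miR-762, miR-341, miR-680, miR-705, miR-706 and miR-721 are of the atypical list, which was defined in part by probes rich in G. The others were miR-193b (59.1%), miR-130a (40.9%), miR-18a (43.5%) and miR-770-3p (72.7%). Across the 163 matched miRs, which share the same arrays, GC content and the slide 3 difference had a Pearson r of 0.378 (Spearman 0.318), and r was 0.285 over the 145 outside the atypical list. With all 3 ST-HSC arrays r was 0.184. The part of base composition in the differences was not tested.

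Seed families are a further view of the same values. Among the matched miRs, 19 seeds were shared by 2 or more tested miRs, and in 13 of these groups all slide 3 differences had the same sign. Family members can be close in sequence, as the printed miR-196a-5p and miR-196b-5p are. Their probes may then read one another's targets, so the signs within a group are not independent. All 9 matched miRs with the let-7 seed GAGGUAG lay below 0 on slide 3, between -0.45 and -0.02, where 38.4% of all tested miRs were above 0. With the block 1 of them was called (let-7g, -0.42, adjusted p = 0.0346), a share near the 11.8% of all tested miRs called higher in MPP. Let-7g read 9.91, 10.48 and 10.61 in ST-HSC and 10.93, 10.93 and 11.03 in MPP. On ST-HSC 1 let-7a stood at 10.15, against 11.79 and 12.07 on ST-HSC 2 and 3, and let-7a differed by -0.95 over all arrays (limma adjusted p = 0.345) and by -0.36 on slide 3. Under the first of the other scalings 3 of the 9 members of the let-7 list (which holds let-7d* and leaves out let-7e) turned positive on slide 3.

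The miR-99, miR-100 and miR-125 clusters, which are high in HSC and help to keep them, showed no call in the 16-array or the blocked fit. In limma 0 of 7 tested members were called in the 16-array fit and 0 with the block. In the former 2 had an unadjusted p under 0.05, both higher in MPP, beside 16.9% of all tested miRs. The fit of slide 3 alone called 4, with MPP higher for 3 and ST-HSC for 1, beside 24.9% of all tested miRs. MiR-125b-5p read 8.83, 9.06 and 9.16 in ST-HSC and 9.66, 9.44 and 9.52 in MPP, a difference of -0.43 on slide 3 (block adjusted p = 0.144). MiR-99a lay at -0.43 and let-7e at -0.45 there, and miR-125a-3p had the other sign, 0.46 (block adjusted p = 0.167, 0.248 and 0.196). The median SE with the block was 0.20 over all tested miRs, so that differences of this size are at the limit of what these arrays can show. The miR-17 clusters held 18 tested miRs, with 0 calls in the 16-array fit and the pair described above with the block. At an unadjusted limma p under 0.05 there were 4 in the former, beside 16.9% of all tested miRs. The median of the 18 was 0.08 over all arrays and -0.01 on slide 3. The lists for miR-30, miR-15 and miR-16, miR-23 to miR-27, miR-221 and miR-222, and miRs shared by all blood cells had 0 calls in limma in both fits and 0 at an unadjusted p under 0.05 in the 16-array fit.

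**Figure D5:**
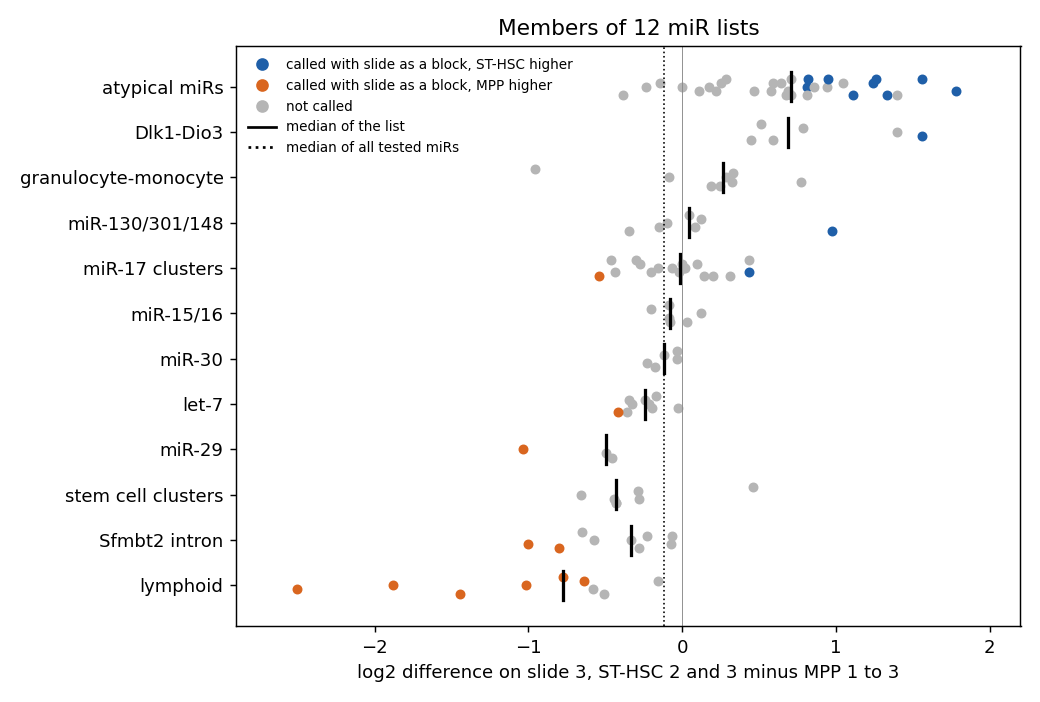
Log2 difference on slide 3 (x axis, ST-HSC 2 and 3 minus MPP 1 to 3) of the tested members of 12 miR lists (y axis), each point 1 miR, coloured by the call with the slide as a block; thick bars are list medians and the dotted line is the median of all 237 tested miRs, -0.12. The lymphoid list lies lowest (median -0.78) and the atypical list highest (median 0.71); some miRs are in more than 1 list.

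MiRs of other blood lineages were looked at for signs of other cells in the sorts. MiR-223, the main miR of granulocytes and monocytes, read 11.79, 12.07 and 11.79 in ST-HSC and 11.79, 11.73 and 11.73 in MPP, a difference of 0.14 (limma adjusted p = 0.849). MiR-338-3p, a further member of that list, was detected on 1 of the 6 arrays, ST-HSC 1, where it read 5.93, and it read 7.31 to 7.71 in GMP and 5.07 to 5.86 in CMP. The granulocyte-monocyte list had 0 calls among 8 tested miRs in the 16-array fit and in the blocked fit. At an unadjusted limma p under 0.05 there was 1 in the former, beside 16.9% of all tested miRs. The erythroid miR-144 was at or within 0.1 of the floor on every array of slide 3 and at 4.48 on ST-HSC 1, and miR-451 read 6.26 to 8.10 in ST-HSC and 5.11 to 7.26 in MPP (difference 1.06, limma adjusted p = 0.357, and 0.73 on slide 3, block adjusted p = 0.483). The summed signal of the 3 erythroid miRs was 83.1 to 308 units in ST-HSC and 39.4 to 164 in MPP, with miR-486 not well above background on any of the 6 arrays. Muscle, liver and mesenchymal lists had no member well above background on any of the 6 arrays, and of 7 neural miRs miR-219 alone was detected, on each of the 6. The part of other cells in the differences was not tested, and in such bulk samples fewer cells of a type and less RNA per cell cannot be told apart.

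ST-HSC arrays had fewer detected miRs on average, 199.3 ± 19.1 against 217.7 ± 9.07 (SD, n = 3 each), a difference of -18.3 that the arrays cannot separate from 0 (exact permutation test, two-sided, p = 0.2, where 0.1 is the smallest possible). On slide 3 it was -8.17 (exact p = 0.4). MiR-21* was the only miR detected on all 3 ST-HSC arrays and no MPP array, at 4.77, 3.23 and 3.71 against 2.60, 2.86 and 3.1, and its difference was not called (limma adjusted p = 0.111). Detection on all MPP arrays and no ST-HSC array was seen for miR-200b, miR-582-5p, miR-210 and miR-669a, of which miR-200b was called.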

How the data were processed

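The authors deposited, per the file headers, Agilent Feature Extraction output (versions 9.5.3.1 and 10.2.1.3) with background-subtracted spot intensity, not normalized between arrays, and a table of log2 values that were quantile normalized from foreground signal, with column medians of 5.41 to 5.44; these served as an alternative. Each array holds 12493 spots, 11540 of them for 577 miRs. Control spots and flagged outliers (2.08 to 2.62% of the miR spots on the 6 arrays) were left out, spots were averaged per probe, the 16 arrays were quantile normalized, and lower signals were set to 3.07 units (log2 1.62), a floor taken from the 95th percentile of negative control spots (median of the arrays). A probe passed if 3 or more arrays had it detected, that is, had a share of 0.5 or more of its spots well above background. The brightest of the passing probes stood for its miR (493 probes passed, for 237 miRs, 2 of them viral). The 16 arrays were fitted by population with limma (version 3.58.1, R 4.3.3; moderated, two-sided, 10 residual and 3.1 prior degrees of freedom). P-values were adjusted over all 237 miRs by the Benjamini-Hochberg method, and calls were made under 0.05. The slide was a fixed block in a second fit (8 residual degrees of freedom) and slide 3 was fitted alone (3). Alternatives changed the scaling, background correction, floor, filter, choice of probe, arrays in the fit and block, or left out 1 array at a time. Levels are set side by side within a miR only, since probes differ in brightness. The 16-array fit, the blocked fit and the fit of slide 3 alone were run on simulated data with independent noise. No slide effect or deviating array was simulated, so that run does not show how the fits handle these. No spot was saturated, and the number of arrays limits the precision.

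Groups came from the sample titles. The members, lists and tests were chosen with earlier results of these data known. Named were all called miRs, up to 10 miRs per direction with the largest difference among those called with the block, up to 4 bright members of each list, the 5 brightest miRs, and miRs detected in 1 population alone; others were chosen after their values were seen.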

Additional observations from a re-analysis of the deposited data

How the results depend on the processing

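All 11 miRs called in the 16-array fit kept their direction in each of the other settings in which they were tested. Not all of them stayed called. All 11 were called with the slide as a fixed block, 5 with the 75th percentile of bright probes and 7 with the deposited values. The number of calls moved. It was 6 with arrays scaled to the 75th percentile of bright probes (detected on all 16 arrays), 19 with normexp, 7 among the 165 miRs that were detected on each of the 6 arrays, 3 with the sum of the probes, 33 with the slide as a random block, 42 with the slide as a fixed block and 59 on slide 3 alone. Without normalization limma called 0 miRs, with 16 at an unadjusted p under 0.05, against 40 in the 16-array fit. Leaving out 1 array gave 2 to 22 calls. Settings chosen after seeing the data joined the block with other choices and gave 37 calls with the filter on all 6 arrays, 51 with the 75th percentile and 40 with the authors' deposited values. MiR-29b turned from 0.63 to -0.50 on slide 3 alone, and miR-487b from -0.39 to 0.61 and 0.41 with the block under the 75th percentile and the deposited values. The causes were not tested.

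Whether the replicate numbers pair the samples is not given in the labels. Same-numbered arrays deviated from their group means together at r = -0.04, 0.12 and 0.01. With 3 arrays a group and ST-HSC 1 far from ST-HSC 2 and 3, these values cannot show whether the samples are paired. ST-HSC 2 alone correlated best with the MPP array of its own number. The fit with the replicate block called 0 miRs in limma, with 42 at an unadjusted p under 0.05. The difference in detected miRs lay between -27.2 and -8.17 when 1 array was left out. Stricter definitions of detection gave -22.3 and -20.7 (exact permutation p = 0.1 for each, the smallest that 3 against 3 arrays allow).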

Other observations

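Arms of the same hairpin and close neighbours did not always lie on the same side. On slide 3 miR-150 was at -1.45 (called with the block) and miR-150* at 1.04 (block adjusted p = 0.241), and miR-224 was at -0.74 (called) and its neighbour miR-452 at 0.44 (block adjusted p = 0.176). MiR-150* read 2.79 on ST-HSC 1 and 5.09 and 5.01 on ST-HSC 2 and 3, against 3.15, 4.42 and 4.45 in MPP, so that the groups overlapped. None of these differences between arms was itself tested.

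The miRs encoded in an intron of Sfmbt2, a rodent cluster of repeat origin, lay below 0 for 8 of 9 tested members over all arrays and for 9 of 9 on slide 3, with a median of -0.33 there beside -0.12 for all tested miRs. With the block MPP were higher for 2 of the 9, miR-467b and miR-467e, beside 11.8% of all tested miRs. MiR-467b read 4.08, 4.88 and 5.11 in ST-HSC and 5.70, 5.81 and 5.88 in MPP. Under the scaling by the 75th percentile of well detected probes 4 of the 9 were above 0 on slide 3. These miRs share near-identical sequences, so their probes may read one another's targets. In the Dlk1-Dio3 region, 6 of 53 listed miRs were tested, all 6 above 0 on slide 3 (median 0.69), and miR-341 was called with the block; 3 of the 6 are also in the atypical list.

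The probe of mghv-miR-M1-2, a miR of a mouse herpesvirus, was well above background on all 6 arrays, at 4.72, 3.92 and 3.91 on ST-HSC 1, 2 and 3 and 3.84, 3.74 and 3.75 on MPP 1, 2 and 3, a difference that was not called (limma adjusted p = 0.446).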
